A study of Mus musculus with 6 samples.

Results

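The Ugt2b and Ugt3a genes were followed through mouse liver RNA of 6 conditions. The members are the 9 genes listed under the symbols Ugt2b1, Ugt2b5, Ugt2b34, Ugt2b35, Ugt2b36, Ugt2b37, Ugt2b38, Ugt3a1 and Ugt3a2, of 18444 genes in all, and all 9 had reads in every library. UDP-glucuronosyltransferases sit in the membrane of the endoplasmic reticulum and join a sugar to small fat-soluble molecules, so that these can leave in bile or urine. The UGT2B enzymes take glucuronic acid from UDP-glucuronic acid and act on steroids, bile acids, fatty acids and drugs, and the liver is a main site of this work. UGT3A enzymes differ in their sugar, and the human UGT3A1 and UGT3A2 proteins use UDP-N-acetylglucosamine and UDP-glucose.

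All livers came from male mice labelled as C57BL/6 (C57BL/6J in the study's methods) and as 6 to 8 weeks of age, and each condition had 1 library. The diet model held SD (labelled CD, a chow diet control), HFD (a high-fat diet, labelled as NASH) and HFD plus JT003. The injury model held Oil (corn oil injected), CCl4 (labelled as liver fibrosis) and CCl4 plus JT003. JT003 is a peptide agonist of both adiponectin receptors, AdipoR1 and AdipoR2. The methods give 16 weeks of diet with 4 weeks of JT003, and 20% CCl4 in corn oil at 5 ml/kg every 3 days for 6 weeks with 3 weeks of JT003 by injection at 500 μg/kg, in groups of 6 mice. The study describes its sequencing for mice on SD, HFD or HFD plus JT003, and names mice that also had a methionine and choline deficient diet separately. Its methods keep the name NASH model for those mice and call HFD alone the NAFLD model, though its results call HFD mice NASH. The labels say NASH and do not mention the deficient diet. Neither source says whether a library held the RNA of 1 mouse or of several. If 6 to 8 weeks was the age at the start, the diet mice were older at harvest than those of the injury model. The rounded counts summed to 19374236 to 20184557 per library. With no second library in any condition there is no error between mice. Each test therefore compared 2 libraries and covered counting error only.

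The 7 Ugt2b genes lie next to each other on chromosome 5 in the order Ugt2b34, Ugt2b1, Ugt2b35, Ugt2b36, Ugt2b5, Ugt2b37 and Ugt2b38, with Ugt2a3 between the last pair, while Ugt3a1 and Ugt3a2 are neighbours on chromosome 15. Each Ugt2b transcript has 6 exons and each Ugt3a transcript 7. Their coding sequences fell into clear blocks. Ugt2b5 and Ugt2b38 were identical at 97.0% of aligned coding bases, Ugt2b5 and Ugt2b37 at 94.7%, and Ugt2b37 and Ugt2b38 at 94.1%. Ugt2b35 and Ugt2b36 matched each other at 88.5% and Ugt2b5 at 87.9% and 88.4%. Ugt2b1 and Ugt2b34 stood apart, at 74.4% with each other. Ugt3a1 and Ugt3a2 matched at 93.3% and shared no more than 49.6% with any Ugt2b gene.

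**Figure D1:**
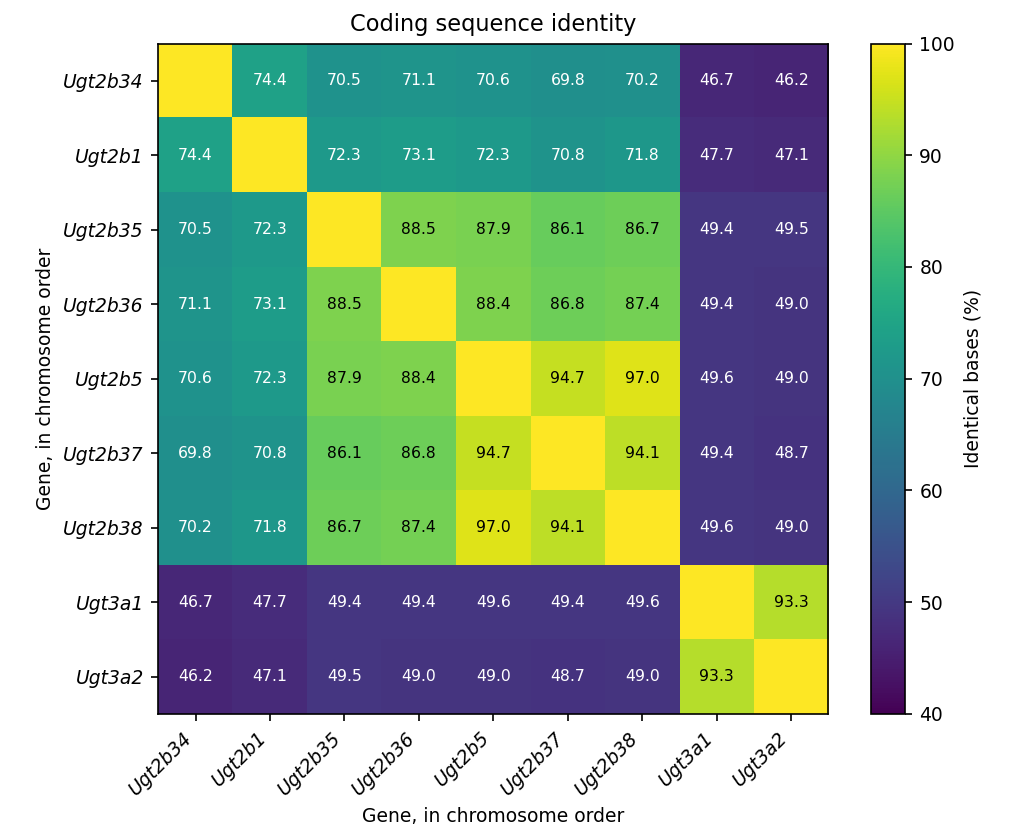
Identical bases (%) between the aligned coding sequences of each pair of the 9 genes, with genes in chromosome order on both axes and the colour scale running from 40 to 100. Ugt2b5, Ugt2b37 and Ugt2b38 form 1 bright block and the Ugt3a pair another, at 94.1% or more and at 93.3%.

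How alike the genes are matters for the counts, because the authors' estimate splits a read that fits several genes. The 60 coding bases in which the 7 Ugt2b genes differ most are shown to make this visible, from the GENCODE transcripts of the mouse (GRCm38), with capitals for each base unlike that of Ugt2b5.
Ugt2b5: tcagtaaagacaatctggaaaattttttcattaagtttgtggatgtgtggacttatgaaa
Ugt2b38: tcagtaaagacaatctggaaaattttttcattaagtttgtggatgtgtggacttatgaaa
Ugt2b37: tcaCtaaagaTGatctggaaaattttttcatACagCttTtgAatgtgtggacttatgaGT
Ugt2b35: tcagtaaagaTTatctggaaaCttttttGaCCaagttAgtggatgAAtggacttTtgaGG
Ugt2b36: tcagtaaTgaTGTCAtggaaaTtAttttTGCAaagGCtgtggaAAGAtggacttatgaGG
Ugt2b1: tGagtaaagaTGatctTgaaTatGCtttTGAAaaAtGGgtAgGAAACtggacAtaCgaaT
Ugt2b34: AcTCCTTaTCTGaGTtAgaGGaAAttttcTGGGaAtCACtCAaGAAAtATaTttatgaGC
Even here Ugt2b38 carried 0 bases unlike Ugt2b5, against 10 in Ugt2b37, 12 in Ugt2b35, 20 in Ugt2b36, 23 in Ugt2b1 and 36 in Ugt2b34. Of all runs of 50 bases in the transcript, 41.7% of those of Ugt2b5, 37.4% of those of Ugt2b38 and 18.3% of those of Ugt2b37 also occurred in another member. The share was 8.88% in Ugt3a1, 8.55% in Ugt3a2 and 0.326% in Ugt2b36, and it was 0 in Ugt2b1, Ugt2b34 and Ugt2b35. Ugt2b1 was the member whose expected count was a whole number in all 6 libraries, and the other 8 had a fraction in every library. The split between Ugt2b5, Ugt2b37 and Ugt2b38, and between Ugt3a1 and Ugt3a2, is therefore an estimate, and the values of Ugt2b37 and Ugt2b38 are the least certain.

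The promoters of the Ugt2b genes shared a short element. Among stretches of 13 letters, the one with the most letters alike in all 7 Ugt2b promoters was GTTANANNTTAAC, with 10 of 13 letters the same, and it came out whichever of the 7 genes was taken as the start of the search. The search was made after the sequences had been read, so the match to these genes is a description. The element is shown in capitals in the stretch from -140 to -41 bases of the RefSeq transcript start (GRCm38.p6).
Ugt2b34, chr5:86906978-86907077, minus strand: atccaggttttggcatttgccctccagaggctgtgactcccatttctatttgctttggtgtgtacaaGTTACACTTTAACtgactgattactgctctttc
Ugt2b1, chr5:86926544-86926643, minus strand: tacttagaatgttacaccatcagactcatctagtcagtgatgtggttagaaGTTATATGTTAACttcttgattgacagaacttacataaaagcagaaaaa
Ugt2b35, chr5:87000720-87000819, plus strand: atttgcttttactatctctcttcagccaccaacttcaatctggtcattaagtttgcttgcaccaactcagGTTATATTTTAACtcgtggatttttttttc
Ugt2b36, chr5:87092596-87092695, minus strand: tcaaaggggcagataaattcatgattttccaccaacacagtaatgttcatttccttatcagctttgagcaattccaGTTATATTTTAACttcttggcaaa
Ugt2b5, chr5:87140381-87140480, minus strand: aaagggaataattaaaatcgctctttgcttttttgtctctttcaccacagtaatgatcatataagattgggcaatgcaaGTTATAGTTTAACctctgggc
Ugt2b37, chr5:87254829-87254928, minus strand: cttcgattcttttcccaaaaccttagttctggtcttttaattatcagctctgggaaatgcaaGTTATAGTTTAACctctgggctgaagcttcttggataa
Ugt2b38, chr5:87424244-87424343, minus strand: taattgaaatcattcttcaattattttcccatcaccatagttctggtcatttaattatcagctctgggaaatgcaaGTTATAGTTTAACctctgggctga
Ugt3a1, chr15:9279689-9279788, plus strand: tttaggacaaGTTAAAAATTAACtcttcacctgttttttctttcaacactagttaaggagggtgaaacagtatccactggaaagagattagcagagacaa
In the Ugt2b genes the first base of the element lay at -89 in Ugt2b1, -78 in Ugt2b37, -73 in Ugt2b34, -70 in Ugt2b35, -64 in Ugt2b36 and Ugt2b38, and -61 in Ugt2b5, and in Ugt3a1 it lay at -130. Searched on both strands of 32851 mouse promoters of 300 bases, the element was found in 30 of them, which is 0.0913%, and 8 of the 30 belonged to the members. The 7 Ugt2b promoters gave the element, so their matches were set in advance. Promoter sequences were matched for 8 of the 9 members. Ugt3a1 was the only other member searched, and it had the element. Ugt3a2 had no promoter sequence and was not searched.

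Per length of transcript, Ugt2b5 was the most abundant member in each library, at 342 to 479 FPKM (the deposited level, corrected for transcript length and library size). It ranked between 130 and 224 among all listed genes. Ugt2b36 followed at 129 to 302 FPKM, and Ugt2b1 (107 to 186 FPKM), Ugt3a2 (100 to 196 FPKM) and Ugt2b34 (68.8 to 208 FPKM) came next with overlapping ranges. Ugt2b35 ranged from 35.2 to 63.0 FPKM and Ugt3a1 from 21.9 to 61.8 FPKM. Ugt2b38 reached 1.19 to 5.78 FPKM and Ugt2b37 0.830 to 2.17 FPKM, on 46 to 213 and 31 to 81 counts. The first 7 genes are thus abundant liver transcripts, and the other 2 are minor ones beside a near copy that is far more abundant.

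**Figure D2:**
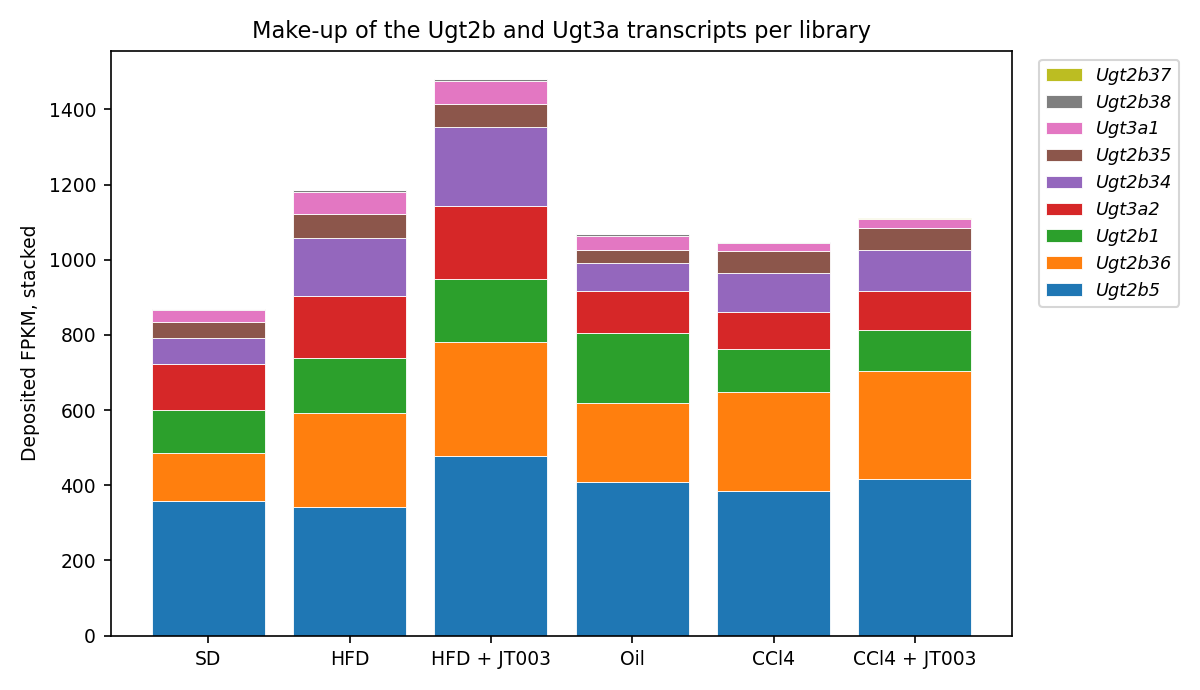
Deposited FPKM of the 9 members stacked for each of the 6 libraries, coloured by gene. The sum is lowest in SD at 870 and highest in HFD plus JT003 at 1482, and the Ugt2b5 block is the largest in every library.

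The members together reached 870 FPKM in SD and 1186 FPKM in HFD, and HFD plus JT003 had the highest sum, 1482 FPKM. In the injury model the sums were 1048 FPKM in CCl4, 1070 in Oil and 1110 in the library with JT003. Scaled instead by TMM, a factor that makes the bulk of genes level between libraries, they were 2198 and 2199 CPM in both CCl4 libraries and higher in Oil, at 2687 CPM, where CPM are counts scaled to 1 common library size. Ugt2b genes made 81.3% to 82.6% of the sum in the diet model and 86.2% to 88.5% in the injury model. Ugt2b5 took 41.2% of the sum in SD but 28.8% in HFD, and the share of Ugt2b34 was 7.91% in SD and 13.2% in HFD. Ugt2b1 went from 17.4% in Oil to 10.8% in CCl4.

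The libraries carried a strong hepatocyte signature, with all 12 hepatocyte markers above 3 counts in each library and a summed level of 103645 to 123997 CPM. Alb and Trf made most of the CCl4 sum, at 71744 and 26767 CPM, so the sum says little about the other markers. The median log2 ratio of the 12 was -0.08 in HFD over SD and -0.29 in CCl4 over Oil. In HFD over SD Cps1 was the 1 marker called, lower (-1.15), where 5.38% of all genes were called. Of 5 kidney tubule markers, listed because kidney also makes these enzymes, Slc34a1, Slc22a6 and Kap were not listed, Umod had at most 1 count, and the summed level was 0.419 to 5.14 CPM. Markers of other liver cells moved between libraries. Stellate cell and myofibroblast markers (6 genes) summed to 55.9 CPM in SD and 72.6 in Oil. They were at 183 CPM in HFD and 337 in CCl4, and at 89.7 and 157 CPM where JT003 was added. The collagen genes Col1a1, Col1a2 and Col3a1 made most of the CCl4 sum, at 117, 96.7 and 104 CPM. The other markers on this list were mixed. In CCl4 over Oil the log2 ratio was -0.92 for Acta2, -0.24 for Lrat (95% counting interval -0.60 to 0.11) and 0.41 for Des. With JT003 on CCl4 it was -1.25 for Acta2, 0.83 for Lrat and -0.68 for Des. Dividing cell markers (5 genes) summed to 3.08 to 6.81 CPM in 4 libraries, 170 in CCl4 and 15.7 in CCl4 plus JT003. Bile duct markers (5 genes) were at 26.5 to 50.1 CPM without CCl4 and at 143 and 156 CPM with it. Spp1 alone made most of the sum in both CCl4 libraries, at 122 CPM in each, against 34.2 CPM in Oil. Macrophage markers (6 genes) ran from 57.7 CPM in Oil to 290 CPM in HFD plus JT003, and endothelial markers (4 genes) from 50.8 CPM in CCl4 to 143 CPM in HFD plus JT003. Their part in the members' values was not tested. In bulk liver, fewer hepatocytes and less RNA per hepatocyte cannot be told apart.

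**Figure D3:**
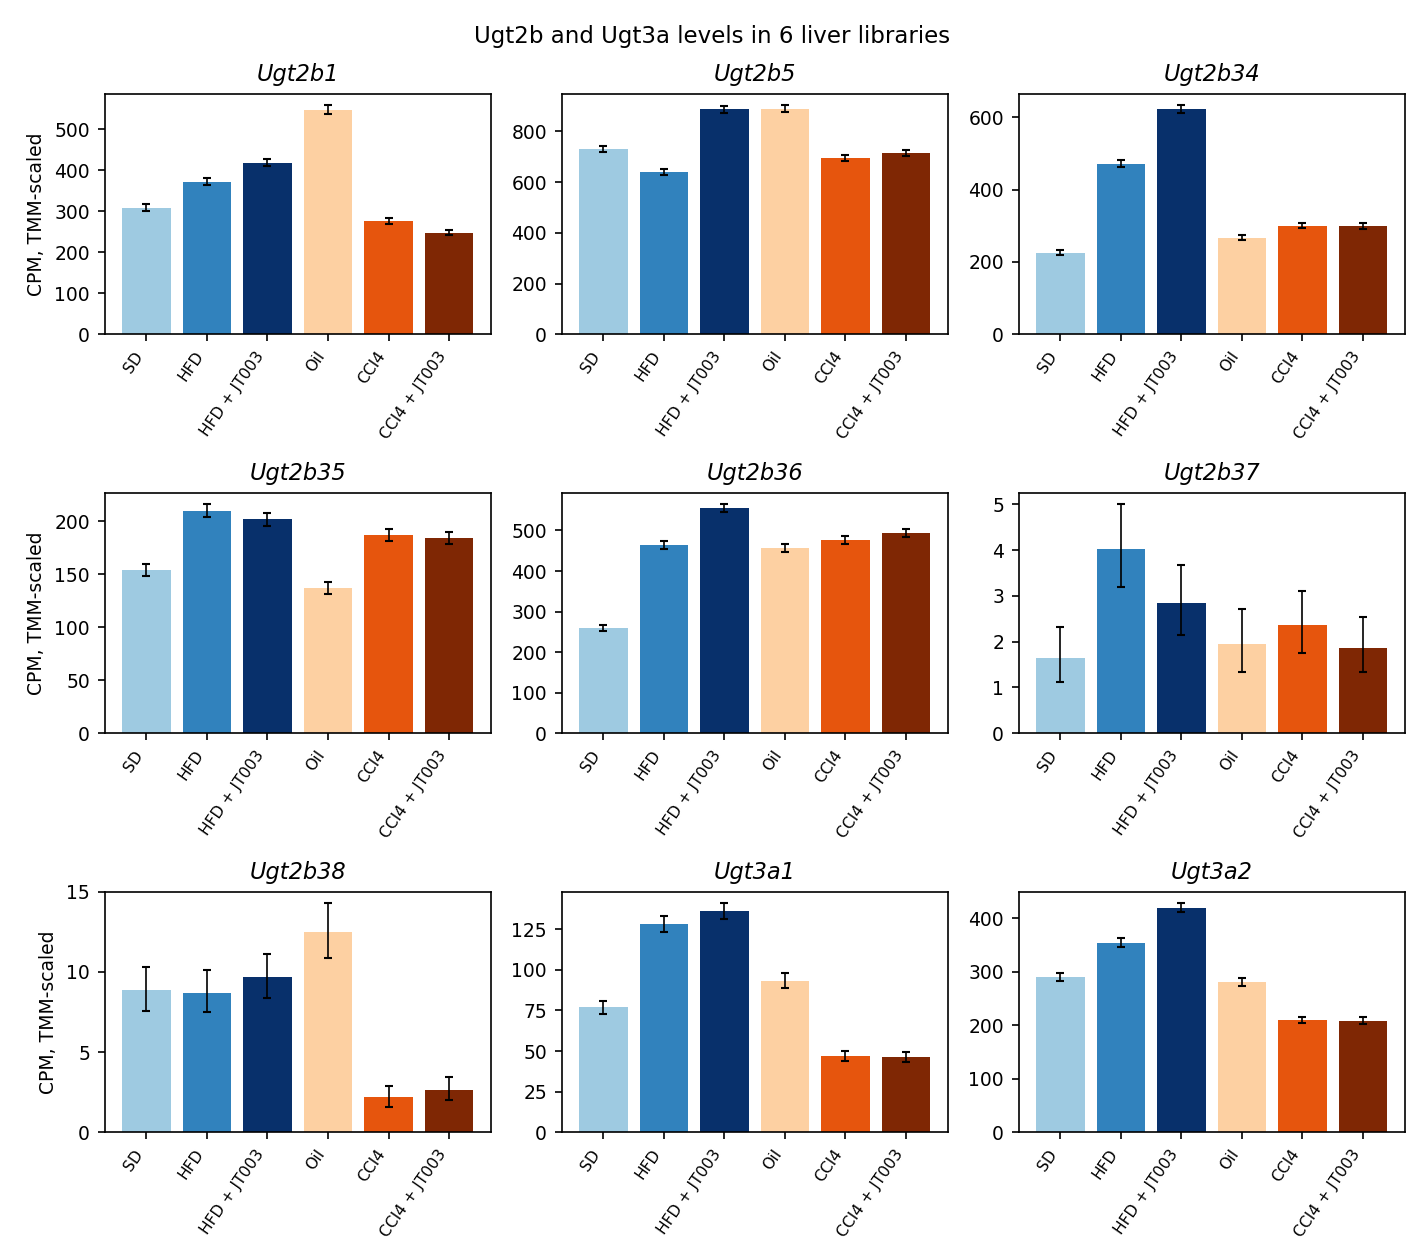
Level of each member (CPM, TMM-scaled, on linear axes starting at 0) in the 6 libraries, 1 bar per library, with 95% Poisson intervals that cover counting error only. Ugt2b34 is highest in both HFD libraries, and Ugt2b38 and Ugt3a1 are lowest in both CCl4 libraries.

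High-fat diet went with higher levels of most members. Ugt2b34 stood at 226 CPM in SD and 471 CPM in HFD, a log2 ratio of 1.06 (95% counting interval 1.01 to 1.11), which is 2.08-fold. Ugt2b37 went from 1.64 CPM (31 counts) to 4.03 CPM (81 counts), a log2 ratio of 1.24 (0.68 to 1.94). These 2 of the 9 members were called, both higher, where a call needed an adjusted p-value under 0.001 in the exact binomial test and at least a 2-fold ratio. Neither passed edgeR's exact test (adjusted p-value under 0.05, no fold ratio) when a coefficient of variation of 0.2 between mice was assumed. The call of Ugt2b37 also ended on the scale of log2 of FPKM plus 1 (0.79). Over all 16973 genes tested, 5.38% were called in either direction and 2.92% were called higher. At 1.5-fold the count was 4 of 9 members and 11.1% of genes. By the p-value alone it was 8 of 9 and 23.4%, a rule that abundant genes pass more easily.

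Ugt2b36 and Ugt3a1 came next without reaching 2-fold. Ugt2b36 was at 260 CPM in SD and 464 CPM in HFD, a log2 ratio of 0.83 (0.78 to 0.88). Ugt3a1 was at 77.0 and 128 CPM, with 0.73 (0.64 to 0.82). Ugt2b35 (log2 ratio 0.45), Ugt3a2 (0.29) and Ugt2b1 (0.27) were above SD by less than 1.5-fold, with intervals above 0. The most abundant member went the other way. Ugt2b5 was at 730 CPM in SD and 640 CPM in HFD, a log2 ratio of -0.19 (-0.22 to -0.15). Ugt2b38 could not be separated from SD, at 8.85 and 8.71 CPM with a log2 ratio of -0.02 (-0.34 to 0.29), and its sign turned positive when the libraries were scaled by total reads. The median log2 ratio of the 9 members was 0.45, beside -0.00 for all genes tested. Hence the members did not move as 1 block. The near copies Ugt2b5, Ugt2b37 and Ugt2b38 had log2 ratios of -0.19, 1.24 and -0.02. Their reads are split by estimate, with 13760 and 12855 counts in Ugt2b5, and the intervals leave out the error of that split.

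**Figure D4:**
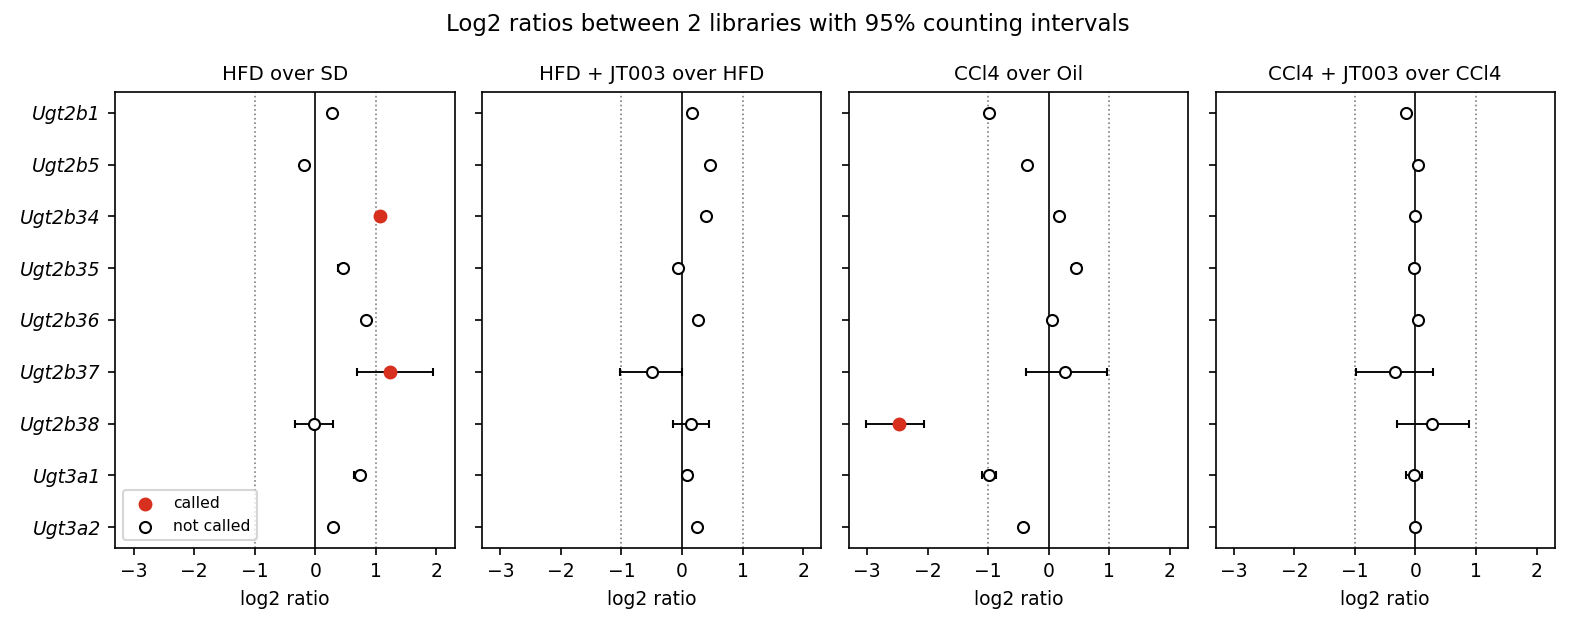
Log2 ratio of each member (horizontal axis) between 2 libraries in 4 comparisons, with 95% Clopper-Pearson intervals for counting error, filled where called and dotted lines at 2-fold. Calls are Ugt2b34 and Ugt2b37 in HFD over SD and Ugt2b38 in CCl4 over Oil, and both JT003 panels hold 0 calls.

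JT003 on top of HFD was followed by further small differences, none of them called. The background of this comparison was 1.63% of 17090 genes. By the p-value alone 5 members passed, as did 14.2% of genes. Ugt2b5 was at 640 CPM in HFD and 887 CPM in HFD plus JT003, a log2 ratio of 0.47 (0.44 to 0.50) or 1.39-fold. Ugt2b34 was at 471 and 623 CPM, with 0.40 (0.36 to 0.44). The log2 ratio was 0.26 for Ugt2b36, 0.25 for Ugt3a2, 0.17 for Ugt2b1 and 0.09 for Ugt3a1, all with intervals above 0. For Ugt3a1 the adjusted p-value in the exact binomial test was 0.103. Ugt2b35 (-0.06, interval -0.12 to 0.00) and Ugt2b38 (0.15, -0.15 to 0.45) could not be separated from HFD. Ugt2b37 was lower at 2.84 CPM against 4.03, a log2 ratio of -0.49 with an interval from -1.02 to -0.00 and an adjusted p-value of 0.154 in the exact binomial test. The median of the members was 0.17, beside -0.01 over all genes.

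The HFD library enters both of these comparisons, so the values of the treated library are also given against SD. Ugt2b34 was at 623 CPM in HFD plus JT003 against 226 in SD, a log2 ratio of 1.46 (1.41 to 1.51), which is 2.75-fold. Ugt2b36 was at 555 against 260 CPM, with 1.09 (1.04 to 1.14). Both were called higher, and the background was 5.93% of 17012 genes in either direction and 3.16% higher. By the p-value alone 7 members and 26.7% of genes passed. Ugt3a1 (log2 ratio 0.82), Ugt2b37 (0.75), Ugt3a2 (0.54), Ugt2b1 (0.44), Ugt2b35 (0.39) and Ugt2b5 (0.28) were above SD without a call, and Ugt2b38 (0.12) could not be separated from it. For Ugt2b34, Ugt2b36, Ugt3a1 and Ugt3a2 the HFD plus JT003 library was the highest of all 6.

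CCl4 went with lower levels of some members and not of others. Ugt2b38 fell from 12.5 CPM (213 counts) in Oil to 2.17 CPM (46 counts) in CCl4, a log2 ratio of -2.47 (-3.02 to -2.06), or 5.55-fold lower. It was the 1 member called. Its counts are split by estimate from those of Ugt2b5 (15136 and 14743 counts), and the interval leaves out the error of that split. Of 17234 genes 7.03% were called in either direction and 2.53% were called lower. At 1.5-fold the count was 3 of 9 members and 13.9% of genes, and by the p-value alone 7 of 9 and 26.0%. Ugt2b1 was at 548 CPM in Oil and 277 CPM in CCl4, a log2 ratio of -0.99 (-1.03 to -0.94). Ugt3a1 was at 93.3 and 47.0 CPM, also with -0.99 (-1.10 to -0.87). Both lay 1.98-fold lower and so just inside the limit of 2-fold.

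Ugt3a2 (log2 ratio -0.42) and Ugt2b5 (-0.36) were lower by 1.34-fold and 1.28-fold. On the other side, Ugt2b35 was at 137 CPM in Oil and 187 CPM in CCl4, a log2 ratio of 0.45 (0.38 to 0.53). Ugt2b34 (0.17) and Ugt2b36 (0.06) were slightly higher, and Ugt2b37 (0.27, -0.38 to 0.96) could not be separated. The median of the members was -0.36, beside -0.02 over all genes. The summed counts of the Ugt2b genes gave a log2 ratio of -0.25 (-0.27 to -0.23), which became 0.01 when scaled by total reads, a scaling that moved the median of all genes to 0.23. In the same pair of libraries 4 of 12 hepatocyte markers were called, Trf higher and Tat, Hpd and Cyp2e1 lower, and all 5 dividing cell markers were called higher.

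A second set of CCl4 counts bears on these values. The authors' table of CCl4 and JT003 holds a CCl4 column that sums to 2.97 times the CCl4 library and appears to pool it with other libraries, which is inferred from the values. With the CCl4 library subtracted, the rest of the pool gave log2 ratios to Oil of -2.59 (-3.00 to -2.26) for Ugt2b38, -1.42 (-1.52 to -1.32) for Ugt3a1 and -1.38 (-1.42 to -1.34) for Ugt2b1, and all 3 were called, with a background of 9.65%. Ugt2b5 was at -0.72 and Ugt3a2 at -0.39. Ugt2b37 was at 0.34 (-0.22 to 0.96), Ugt2b35 at 0.08, Ugt2b34 at 0.01 and Ugt2b36 at -0.18, the last with the opposite sign to the CCl4 library. Both sets used the same Oil library, so a difference that belongs to Oil would show in both.

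**Figure D5:**
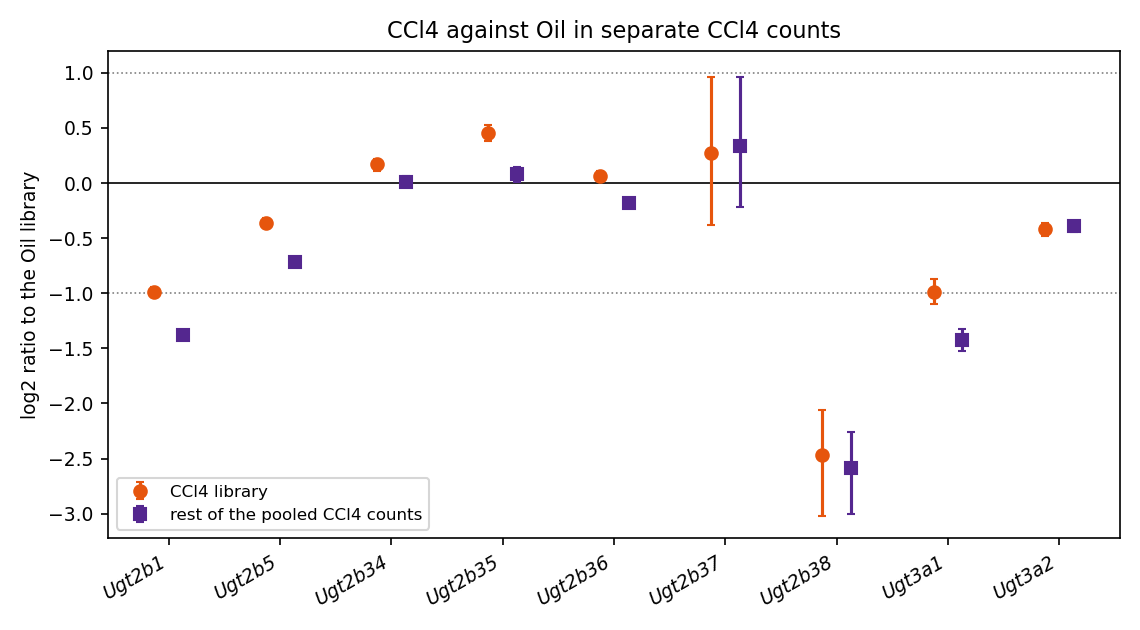
Log2 ratio to the Oil library for each member, from the CCl4 library (circles) and from the authors' pooled CCl4 counts less that library (squares), with 95% Clopper-Pearson intervals for counting error and dotted lines at 2-fold. Ugt2b38, Ugt3a1 and Ugt2b1 are the lowest in both sets, between -2.59 and -0.99.

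With JT003 on top of CCl4 the members lay close to the levels of the CCl4 library. None was called, against a background of 4.39% of 17393 genes, and the intervals of 6 of the 9 members included 0. By the p-value alone 1 member passed, Ugt2b1, as did 24.0% of genes. Ugt2b1 was at 277 CPM in CCl4 and 248 CPM in CCl4 plus JT003, a log2 ratio of -0.16 (-0.21 to -0.10). Ugt3a1 was at 47.0 and 46.3 CPM, with -0.02 (-0.15 to 0.10), and Ugt3a2 at 210 and 209 CPM, with -0.00 (-0.06 to 0.06). Ugt2b38 was at 2.17 and 2.65 CPM (46 and 57 counts), with 0.28 (-0.30 to 0.88). Ugt2b5 (0.04) and Ugt2b36 (0.05) were barely higher. Ugt2b34 (-0.01) and Ugt2b35 (-0.03) could not be separated, nor could Ugt2b37 (-0.33, -0.98 to 0.29). The median absolute log2 ratio of the members was 0.04, beside 0.26 for the 9807 genes with at least 100 counts in either library. These sets are not matched for abundance, and Ugt2b37 and Ugt2b38 had fewer than 100 counts in both libraries.

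Which CCl4 counts stand as the control mattered here. Against the rest of the pool, the CCl4 plus JT003 library gave log2 ratios of 0.41 (0.29 to 0.52) for Ugt3a1, 0.40 for Ugt2b5, 0.34 for Ugt2b35, 0.29 for Ugt2b36, 0.24 for Ugt2b1 and 0.15 for Ugt2b34, with intervals above 0, and none was called (background 4.64%). The sign for Ugt2b1, Ugt2b34, Ugt2b35 and Ugt3a1 was thus opposite to that against the CCl4 library. Compared with Oil, the CCl4 plus JT003 library had Ugt2b38 at a log2 ratio of -2.20 (-2.69 to -1.81), Ugt2b1 at -1.14 (-1.19 to -1.09) and Ugt3a1 at -1.01 (-1.13 to -0.90). These 3 were called lower, with a background of 4.83% of 17338 genes in either direction and 1.86% lower. By the p-value alone 8 members and 20.8% of genes passed. Under total reads Ugt2b1 (-0.80) and Ugt3a1 (-0.67) were no longer called, nor was Ugt3a1 with TMM over the 3 libraries of the model (-0.97).

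The 2 control libraries differed as well. Ugt2b1 was at 309 CPM in SD and 548 CPM in Oil, a log2 ratio of 0.83 (0.78 to 0.88), and Ugt2b36 at 260 and 456 CPM, with 0.81 (0.76 to 0.86). No member was called, and the background was 5.42% of 17018 genes. At 1.5-fold these 2 members and 15.0% of genes passed, and by the p-value alone 6 members and 28.7%. Ugt2b38 (0.50), Ugt2b5 (0.29), Ugt3a1 (0.28) and Ugt2b34 (0.24) were also above SD, and Ugt2b35 was below it (-0.17). Ugt3a2 (-0.04) and Ugt2b37 (0.23) could not be separated. For Ugt2b1 and Ugt2b36 this gap between controls was close in size to the ratio of CCl4 to Oil and of HFD to SD, respectively. Corn oil, the experiment, its length (16 weeks of diet, 6 weeks of injections) and the mice differ between these libraries and cannot be told apart. With the length, age at harvest may differ too.

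Over the 6 libraries, the order of levels therefore differed from gene to gene. Ugt2b1 ran from 548 CPM in Oil through HFD plus JT003, HFD, SD and CCl4 to 248 CPM in CCl4 plus JT003, and each neighbour in this order was separated from the next. Ugt2b5 had the narrowest range, 1.39-fold between Oil and HFD, and Oil (890 CPM) could not be separated from HFD plus JT003 (887 CPM). Ugt2b38 had the widest, 5.77-fold. Oil was its highest level, the next 3 (HFD plus JT003, SD and HFD) were not separated from each other step by step, and its CCl4 levels with and without JT003 were the lowest and not separated. Ugt2b34 (2.75-fold) was highest in HFD plus JT003, then HFD, the CCl4 libraries, Oil and SD, and only the 2 CCl4 libraries could not be separated. Ugt2b36 (2.13-fold) was lowest in SD and highest in HFD plus JT003, and HFD (464 CPM) could not be separated from CCl4 above it or Oil below it. Ugt2b35 (1.54-fold) was highest in the 2 HFD libraries, then in the 2 CCl4 libraries, then in SD and Oil, and neither pair that differed by JT003 could be separated. Ugt3a1 (2.93-fold) and Ugt3a2 (2.01-fold) had the 2 HFD libraries on top, the controls next and the 2 CCl4 libraries, not separated, at the bottom, and for Ugt3a2 the controls were not separated either. For Ugt2b37 only HFD was separated from the next level, HFD plus JT003, and only by its unadjusted interval.

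Among 8319 genes with at least 100 counts in each library, the 5 whose course over the 6 libraries was nearest to the mean course of the 7 abundant members were Osgepl1, Ift140, Zfp942, Nmi and Rnf13. Their root mean square difference from that course was 0.0628, 0.0709, 0.0784, 0.0825 and 0.0921 on the log2 scale. The members themselves lay 0.174 (Ugt3a2) to 0.393 (Ugt3a1) from it, and the median of the other genes lay at 0.377. The mean course hid unlike courses of single members.

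Other UGT genes, the genes that supply or remove UDP-glucuronic acid, the transporters of glucuronides and known regulators were set beside the members. The median log2 ratios of these 4 lists were -0.15, 0.05, 0.58 and 0.12 in HFD over SD, and 0.19, 0.37, 0.06 and -0.10 in CCl4 over Oil, beside -0.00 and -0.02 over all genes. For the calls in these lists, the shares over all genes were 5.38% in HFD over SD and 7.03% in CCl4 over Oil. They were 1.63% with JT003 on HFD and 4.39% with JT003 on CCl4. Of 12 other UGT genes in the files, Ugt8a among them, 2 of 10 tested were called lower in HFD over SD. They were Ugt1a10, at 27 and 5 counts (log2 ratio -2.13), and Ugt1a9, which conjugates phenols, at 564 counts in SD and 251 in HFD (-1.25). In CCl4 over Oil Ugt1a9 was the 1 of 12 called, higher, at 840 and 2759 counts (log2 ratio 1.40). Both directions were opposite to those of Ugt3a1. The Ugt1a transcripts share exons, so their counts are split by estimate as well. Ugt1a1, the enzyme of bilirubin, was not called in these comparisons (log2 ratios -0.25 and -0.06). With JT003 on CCl4, 2 of 12 were called, Ugt1a6a lower, at 1308 and 562 counts (-1.23), and Ugt2a1 higher, at 0 and 24 counts. With JT003 on HFD, 2 of 11 were called, Ugt2a1 lower, at 21 counts and 1 count, and Ugt2a2 higher, at 0 and 21 counts. Ugt2a1 and Ugt2a2 share exons too, so the split of these few reads between them is an estimate. In HFD plus JT003 over HFD Ugt1a1 was at 9257 and 14977 counts, a log2 ratio of 0.67 (0.63 to 0.71).

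Of the 10 genes that supply or remove UDP-glucuronic acid, 2 were called in HFD over SD, both higher. They were Ugp2, which makes UDP-glucose (log2 ratio 1.29), and Slc35b1, a nucleotide carrier of the endoplasmic reticulum (1.07). Ugdh, which oxidises UDP-glucose to UDP-glucuronic acid, was at 0.49. None of the 10 was called in CCl4 over Oil or with JT003 in either model. Of 7 transporters, Abcc3, an exporter of glucuronides to blood, and Slco1b2, an uptake carrier, were called higher in HFD over SD (log2 ratios 1.15 and 1.08). Slco1a1, another uptake carrier, fell in CCl4 over Oil from 4350 to 568 counts (-3.25), alongside Ugt2b38, Ugt2b1 and Ugt3a1. With JT003 on HFD, Slco1a4 was called higher (1.32), and with JT003 on CCl4 none of the 7 was.

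Of 16 regulators, Nr1i3 (CAR), a drug-sensing nuclear receptor, was called with JT003 in the diet model, at 2139 counts in HFD and 5387 in HFD plus JT003 (log2 ratio 1.31). It was at 1852 and 3401 counts in CCl4 and CCl4 plus JT003 (0.86, not called). Ahr, the dioxin receptor, was called higher in HFD over SD (1.32). In CCl4 over Oil Nfe2l2 was called higher (1.16) and Onecut1 lower (-1.43), and with JT003 on CCl4 Onecut1 was called higher (1.43). None of these regulators was tested for a link to the members.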

How the data were processed

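RNA of mouse liver was sequenced on a BGISEQ-500, with 1 library per condition. Per gene and library, the authors deposited an FPKM value and an expected count. The submitters' processing notes name HISAT, Bowtie2, RSEM and mm9, with no versions. An expected count is the authors' estimate, by which a read that fits several genes is split. The authors also deposited 4 comparison tables with log2 ratios, p-values and scores, of which only the pooled CCl4 column of expected counts was used. Of their other expression columns 7 were not used.

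Expected counts were rounded and scaled by TMM over the 6 libraries (edgeR 4.0.16, R 4.3.3). For 7 comparisons the reads of a gene in 2 libraries were compared by the exact conditional binomial test, two-sided (scipy 1.17.1), for all genes with at least 1 read, with Benjamini-Hochberg adjustment. Calls needed an adjusted p-value under 0.001 and a 2-fold ratio, after adding a prior count of 2. Intervals are 95% Clopper-Pearson (Poisson for levels) and cover counting error only. The test was checked on simulated counts. Alternatives were total reads, DESeq2 1.42.0 size factors, TMM within a model, other thresholds, log2 of FPKM plus 1 or 0.1 (2-fold alone), and the pooled CCl4 counts. Another was edgeR's exact test with an assumed variation, where calls needed only an adjusted p-value under 0.05.

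The files use mm9, so no coordinates of theirs are given. All 9 members had a transcript in GENCODE vM21 (GRCm38), aligned with MAFFT 7.526. All members are named, along with genes of fixed lists and the 5 genes nearest in course. Members and lists were chosen with earlier results of these data known. Some results are not reported here.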

Additional observations from a re-analysis of the deposited data

Results flagged for a closer look

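Some members differed in opposite directions in the 2 models, with both counting intervals off 0. With 1 library per condition, none of these differences was tested. Ugt3a1 was higher in HFD than in SD (log2 ratio 0.73) and lower in CCl4 than in Oil (-0.99), a difference of 1.72. For Ugt2b1 the log2 ratios were 0.27 and -0.99, a difference of 1.26. For Ugt3a2 they were 0.29 and -0.42, a difference of 0.71. JT003 also went with opposite signs for Ugt2b1, at 0.17 in the diet model and -0.16 in the CCl4 model, a difference of 0.33, and the second sign turned with the pooled CCl4 counts (0.09). No condition had the 4 libraries needed to look for an outlying sample.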

How the results depend on the processing

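No paired analysis was possible because no condition has a second library, and leaving out a library was impossible for the same reason. Under total reads the median of all genes was 0.12 in HFD over SD, 0.23 in CCl4 over Oil and 0.32 in CCl4 plus JT003 over Oil. The share of called genes that were higher became 65.5% (54.2% with TMM), 81.9% (64.0%) and 85.7% (61.6%), 66.6% (53.4%) in HFD plus JT003 over SD and 29.9% (40.2%) in Oil over SD. The median of the members became 0.58 in HFD over SD, -0.09 in CCl4 over Oil, 0.07 in CCl4 plus JT003 over CCl4, 0.68 in HFD plus JT003 over SD and 0.03 in CCl4 plus JT003 over Oil, where 1 member was called in place of 3. In CCl4 plus JT003 over Oil, 1242 of 17338 genes were called with this scaling. Under total reads Ugt2b38 was at 0.10 in HFD over SD. Ugt2b34 was at 0.07, Ugt2b35 at 0.05 and Ugt3a1 at 0.05 in CCl4 plus JT003 over CCl4, and Ugt2b5 was at 0.03 and Ugt2b37 at 0.27 in CCl4 plus JT003 over Oil. All of these signs are opposite to those with TMM, and by construction total reads shift all genes of a library together.

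With log2 of FPKM plus 1 the medians were 0.56 in HFD over SD, where Ugt2b34 was called and Ugt2b37 (0.79) was not, -0.09 in CCl4 over Oil, 0.07 in CCl4 plus JT003 over CCl4 and 0.03 in CCl4 plus JT003 over Oil, where 1 was called. Plus 0.1 gave 0.57, -0.09, 0.07 and 0.03 (1 called), with 0.68 in HFD plus JT003 over SD. Over all genes, plus 1 put 632 of 17025 past 2-fold in HFD over SD. In CCl4 plus JT003 over Oil it put 592 of 17385 past 2-fold, and plus 0.1 put 2116. The reversed genes matched those under total reads, at 0.09 or 0.10 for Ugt2b38, 0.07, 0.05 and 0.05 for Ugt2b34, Ugt2b35 and Ugt3a1, 0.03 for Ugt2b5, and 0.15 or 0.27 for Ugt2b37. TMM within a model gave a median of -0.28 in CCl4 plus JT003 over Oil.

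Without a fold threshold, 8 members were called in HFD over SD, 5 in HFD plus JT003 over HFD, 7 in CCl4 over Oil, 1 in CCl4 plus JT003 over CCl4, 7 in HFD plus JT003 over SD, 8 in CCl4 plus JT003 over Oil and 6 in Oil over SD. At 1.5-fold there were 4 in HFD over SD, 3 in CCl4 over Oil and 2 in Oil over SD. In edgeR's exact test with an assumed variation, a call needed an adjusted p-value under 0.05 and no fold ratio, unlike the main calls. With a coefficient of variation of 0.2 between mice, HFD over SD had 0 members called. HFD plus JT003 over SD and CCl4 plus JT003 over Oil had 1 each, and Ugt2b38 passed this rule in CCl4 over Oil. Over all genes, 429 of 16973, 512 of 17012, 347 of 17338 and 731 of 17234 were called in these comparisons, in the same order. At 0.4 there were 0 members in each of these 4.

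The pooled CCl4 counts called 3 members in CCl4 over Oil, also less the library, and put Ugt2b36 at -0.08 and -0.18. Over all genes they called 1551 of 17726, and less the library 1686 of 17465. In CCl4 plus JT003 over CCl4 they gave medians of 0.20 and 0.29, with Ugt2b1 at 0.09 and 0.24, Ugt2b34 at 0.09 and 0.15, Ugt2b35 at 0.20 and 0.34 and Ugt3a1 at 0.24 and 0.41. Single members were also computed one by one under total reads, DESeq2 size factors, TMM within a model, both FPKM scales, a prior count of 0.5 and the pooled counts, and 365 of these 405 values kept their sign and their call. That share depends on the settings chosen, and all reversed signs came under total reads, the FPKM scales or the pooled counts.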

Other observations

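Ugt2a3, a glucuronosyltransferase gene that lies between Ugt2b37 and Ugt2b38, was at 133 CPM in SD and 182 CPM in Oil, the controls. It was at 173 CPM in HFD and 131 CPM in CCl4, and at 207 and 162 CPM where JT003 was added. Its log2 ratio was 0.38 (95% counting interval 0.30 to 0.45) in HFD over SD and -0.47 (-0.55 to -0.40) in CCl4 over Oil, and it was called in neither. With JT003 it was at 0.26 in the diet model and 0.30 in the CCl4 model. Ugt2a1 and Ugt2a2, at the far end of the same cluster, share exons and had few counts. In the diet model Ugt2a1 had 11 counts in SD, 21 in HFD and 1 with JT003, and Ugt2a2 had 0, 0 and 21. In the CCl4 model Ugt2a1 had 10 counts in Oil, 0 in CCl4 and 24 with JT003, and Ugt2a2 had 0, 6 and 0.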
